A study of Homo sapiens with 6 samples.

Results

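The RNA sites of FXR2 were set against those of wild-type FMR1 isoform 7, as mapped by PAR-CLIP in HEK293 cells, an established human embryonic kidney line. Every site of both lists was taken: 34521 FXR2 sites and 78495 isoform 7 sites, which make 113016 of the 464799 sites in the 6 lists of the study. The other 4 lists belong to FXR1, to wild-type FMR1 isoform 1 and to the I304N forms of both FMR1 isoforms. They are used here only to describe where FXR2 and isoform 7 sites also occur.

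FMR1, FXR1 and FXR2 form a small family of RNA-binding proteins that contact RNA through KH domains and an arginine- and glycine-rich region and that associate with translating ribosomes. FMR1 is best known as a regulator of translation, and its loss causes fragile X syndrome. FXR1 and FXR2 are its autosomal paralogs, and isoform 7 is one of the splice forms of FMR1. In PAR-CLIP, cells build 4-thiouridine into new RNA, ultraviolet light joins it to the protein in contact, and RNA still attached after nuclease treatment and immunoprecipitation is sequenced. A site is a short interval of the genome, on one strand, that the authors called from those reads.

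Both FXR2 and wild-type isoform 7 were expressed as FLAG-HA-tagged transgenes in stable FlpIn T-REx HEK293 lines. Both lines received 1 µg/ml doxycycline, to induce the transgene, and 100 µM 4-thiouridine for 16 h. Crosslinking used light of 365 nm at a dose of 0.15 J per square cm. RNase T1 then trimmed the RNA in the lysates (15 min, 22 °C), and the tagged protein was recovered with anti-FLAG. The sites therefore describe tagged, induced proteins in one cell line. Each tagged form had 1 library, so no difference below has a replicate check and no p-value was computed. Intervals in brackets are exact 95% intervals, Clopper-Pearson for shares and conditional for ratios. They cover counting error only and treat sites as independent, which sites on one transcript are not. The lists give no reads per site, so the number of reads behind a site is unknown, and number of sites cannot be told apart from sequencing depth.

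FXR2 sites were narrower than isoform 7 sites at the wide end. The median width was 20 nt for FXR2 (quartiles 18 and 23) and 21 nt for isoform 7 (quartiles 18 and 26). The mean was 20.8 nt for FXR2 (SD 5.33 across sites) and 23.2 nt for isoform 7 (SD 11.2). Sites of 60 nt or more numbered 53 in FXR2, 0.154% of its list, and 1183 in isoform 7, 1.51% of its list. The widest site was 147 nt in FXR2 and 367 nt in isoform 7. In all, FXR2 sites covered 718752 nt and isoform 7 sites 1822860 nt. The authors' repeat flag was set for 3.91% of the FXR2 list (3.71 to 4.12) and 4.51% of the isoform 7 list (4.36 to 4.65).

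About 1 in 3 FXR2 sites touched an isoform 7 site, and most of the others lay close to one. By an overlap of at least 1 nt on the same strand, 11069 FXR2 sites were shared, 32.1% of the list (31.6 to 32.6). From the other side, 10753 isoform 7 sites were shared, 13.7% of that list (13.5 to 13.9). The private sites, which overlap no site of the other list, numbered 23452 in FXR2 and 67742 in isoform 7. The numbers of shared sites were close, and the shares differ with the length of the lists. On opposite strands, measured the same way, 31 FXR2 sites (0.0898%) and 29 isoform 7 sites (0.0369%) overlapped, so the sharing followed the strand.

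Allowing a gap between sites raised the FXR2 share steeply. An isoform 7 site lay within 10 nt of 36.9% of FXR2 sites, within 100 nt of 55.8%, within 1000 nt of 79.3% and within 10000 nt of 91.3%. Measured from isoform 7, an FXR2 site lay within 10 nt of 16.4% of sites, within 100 nt of 30.5%, within 1000 nt of 52.8% and within 10000 nt of 72.1%. Private FXR2 sites had a median distance of 250 nt to the nearest isoform 7 site, and private isoform 7 sites one of 1569 nt to the nearest FXR2 site. With no partner within 10000 nt stood 3020 FXR2 sites, 8.75% of the list, and 21908 isoform 7 sites, 27.9% of that list. FXR2 sites thus lay mostly in the neighbourhood of isoform 7 sites, and isoform 7 sites reached many places without an FXR2 site nearby. A longer list lies nearer to any site, so part of this difference follows from list length. Lists of equal length were not compared.

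Counts of isoform 7 midpoints around each FXR2 site showed a narrow peak on a broad shoulder. At the same midpoint there were 25.5 isoform 7 midpoints per 1000 FXR2 sites. Their density was 14.3 per nt per 1000 FXR2 sites at distances up to 5 nt, 6.69 at 6 to 10 nt and 4.00 at 11 to 20 nt. It stayed at 4.13 at 21 to 30 nt and 4.21 at 31 to 50 nt, and was 2.78 at 101 to 200 nt and 1.94 beyond 500 nt and up to 1000 nt. The density at 11 to 20 nt was 2.06 times this last one. Within a list, sites on a strand did not overlap, which keeps their midpoints apart. The low densities at 11 to 20 nt, 0.316 for FXR2 around FXR2 and 0.201 for isoform 7 around isoform 7, follow largely from this. From 21 to 200 nt, 572 isoform 7 midpoints lay downstream and 588 upstream per 1000 FXR2 sites, with little difference between the sides.

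**Figure D1:**
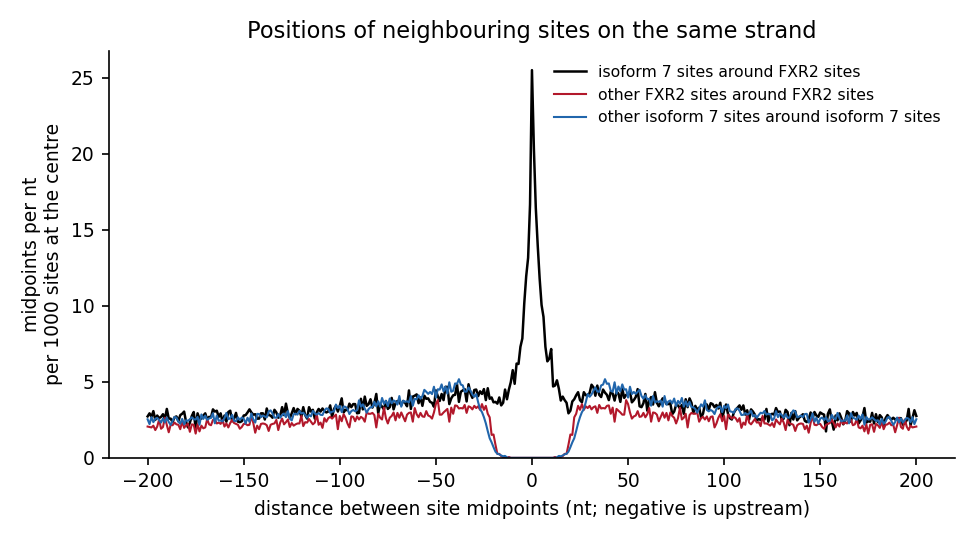
Density of site midpoints (per nt and per 1000 central sites, vertical axis) against the distance in nt between midpoints on the same strand (horizontal axis), for isoform 7 sites around FXR2 sites and for each list around itself. Isoform 7 midpoints peak on FXR2 midpoints, at 25.5 per 1000 FXR2 sites. Sites of one list do not overlap on a strand, so each list lacks close neighbours of its own.

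Where the lists overlapped, the FXR2 site was often the smaller one and lay inside its partner. The overlaps made 11365 pairs, with a median overlap of 17 nt (quartiles 12 and 21) and median widths of 21 nt for the FXR2 member and 26 nt for the isoform 7 member. The FXR2 site lay wholly inside the isoform 7 site in 4817 pairs, 42.4%, and the isoform 7 site inside the FXR2 site in 1526 pairs, 13.4%. The 5′ ends were the same to the nucleotide in 1892 pairs, 16.6% (16.0 to 17.3), and the 3′ ends in 1345 pairs, 11.8% (11.2 to 12.4). Both ends were the same in 384 pairs, 3.38%. The FXR2 5′ end lay downstream of its partner's in 50.7% of pairs and upstream in 32.7%. The FXR2 3′ end lay upstream in 59.7% and downstream in 28.4%. Of pairs in which both sites were up to 22 nt wide, 24.1% had the same 5′ end and 17.8% the same 3′ end.

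A shared 5′ end stood out against its neighbours. The FXR2 5′ end was offset by 1 nt upstream in 232 pairs and by 1 nt downstream in 147 pairs, against 1892 pairs at offset 0. For the 3′ end the counts were 618 pairs at 1 nt upstream, 1345 at offset 0 and 191 at 1 nt downstream. Exact coincidence was thus sharper at the 5′ end than at the 3′ end.

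Shared sites were wider and more crowded than private ones, above all in isoform 7. Shared isoform 7 sites had a mean width of 30.4 nt (SD 18.9) and private ones 22.1 nt (SD 8.82). For FXR2 the means were 21.8 nt for shared sites (SD 7.41) and 20.3 nt for private sites (SD 3.90). A wider site has more nucleotides to overlap, and part of this order follows from the definition. Sites with no other midpoint of the same list within 1000 nt on the same strand are called isolated here. They made up 29.5% of FXR2 sites (29.0 to 29.99) and 28.9% of isoform 7 sites (28.5 to 29.2). Among FXR2 sites 23.3% of shared and 32.4% of private sites were isolated. Among isoform 7 sites 11.9% of shared and 31.6% of private sites were isolated.

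The shared fraction of FXR2 sites had a minimum at middle widths. It was 45.8% for the 1000 FXR2 sites of 10 to 12 nt, 26.1% for the 11680 sites of 19 to 21 nt, 62.3% at 31 to 40 nt and 88.7% for the 53 sites of 60 nt or more. The shared fraction of isoform 7 sites was lowest among narrow ones: it was 6.86% at 10 to 12 nt, 6.30% at 13 to 15 nt, 9.89% at 19 to 21 nt, 27.9% at 31 to 40 nt and 58.7% at 60 nt or more. Crowding went the same way in both lists. FXR2 sites with 10 or more neighbours of their own list within 1000 nt were shared in 47.2% of cases and isolated ones in 25.3%. For isoform 7 the corresponding shares were 25.7% and 5.63%. Sites in repeats were shared less often than the rest by a small margin, 29.6% (27.2 to 32.1) against 32.2% in FXR2 and 11.8% against 13.8% in isoform 7.

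The other libraries separated the private sites of the 2 proteins. Private FXR2 sites fell on a site of wild-type isoform 1 in 55.1% of cases, on I304N isoform 1 in 25.1%, on FXR1 in 22.0% and on I304N isoform 7 in 15.0%. Private isoform 7 sites fell on I304N isoform 1 in 62.4% of cases, on I304N isoform 7 in 45.4%, on wild-type isoform 1 in 42.7% and on FXR1 in 0.593%. Private FXR2 sites thus met wild-type isoform 1 more often than either I304N list, and private isoform 7 sites met I304N isoform 1 most often. These shares depend on the length of each list, and the FXR1 list, with 9017 sites, is the shortest. They also depend on the definition: a private isoform 7 site lies on no FXR2 site, and 6684 FXR2 sites met FXR1, so leaving out shared sites takes away 1508 of the 1910 isoform 7 sites on FXR1. Over whole lists, 19.4% of FXR2 sites and 2.43% of isoform 7 sites met FXR1.

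**Figure D2:**
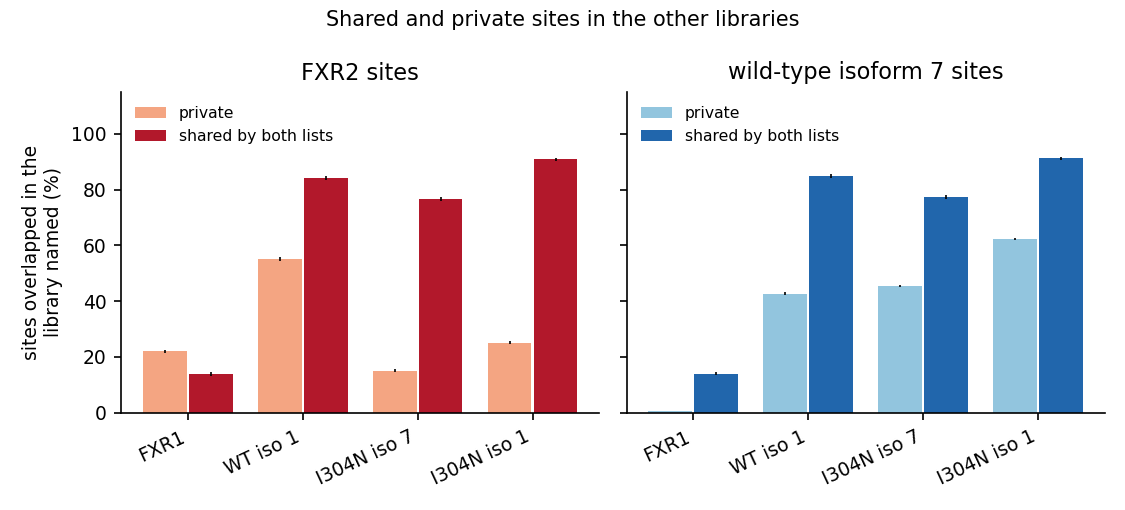
Percent of FXR2 sites (left) and of wild-type isoform 7 sites (right) overlapped by a site of the library named on the horizontal axis, for private sites and for sites shared by both lists; error bars are exact 95% intervals. FXR1 is met by 22.0% of private and 13.8% of shared FXR2 sites, and by 0.593% of private and 14.0% of shared isoform 7 sites, where private means on no FXR2 site.

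Shared sites looked alike from both sides, as they mostly are the same places. Wild-type isoform 1 was met by 84.1% of shared FXR2 sites and 84.9% of shared isoform 7 sites, and I304N isoform 1 by 90.8% and 91.2%. FXR1 was met by 13.8% of shared FXR2 sites, which is below the 22.0% of private FXR2 sites. Of all FXR2 sites, 9306 (27.0%) met both wild-type FMR1 isoforms, 1763 (5.11%) isoform 7 alone of these, 12917 (37.4%) isoform 1 alone and 10535 (30.5%) neither. Met by none of the other 5 libraries were 7319 FXR2 sites, 21.2% of the list, and 18290 isoform 7 sites, 23.3% of that list.

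For local density, sites were counted by midpoint in windows of 50 kb on each strand. Counts were scaled to 100000 sites per list, which puts both lists on one scale. FXR2 sites lay in fewer windows, with a larger share of them in the fullest ones. They occupied 7976 windows and isoform 7 sites 15848, with 6167 windows holding both. The 100 fullest windows held 13.6% of FXR2 sites and 9.96% of isoform 7 sites, and the 1000 fullest held 52.5% and 42.1%. A shorter list reaches fewer windows in any case, and a fixed number of windows is a larger part of those. The lists were not compared at equal length.

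Of 7341 windows with a mean of at least 2 scaled sites over both lists, 1501 (20.4%) were at least 2-fold denser in FXR2 and 1733 (23.6%) at least 2-fold sparser, on the scale of log2(scaled sites + 1). The median log2 ratio over these windows was 0.14. Median-of-ratios scaling centres the windows that hold sites of both lists instead of the totals. With it the median was -0.16, and 1251 were denser and 2564 sparser of 7924 windows that then passed the filter. Among the 1449 windows with at least 20 sites over both lists, 294 (20.3%) were denser and 264 (18.2%) sparser. Windows with few sites can reach a 2-fold difference through counting error alone, so these counts are a background for the windows named below and no list of differences.

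**Figure D3:**
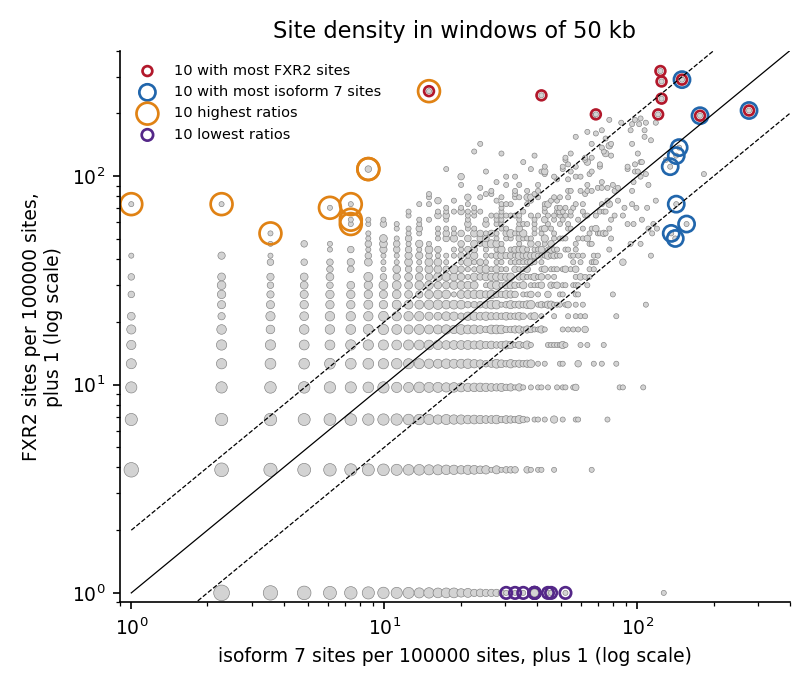
FXR2 sites (vertical axis) against isoform 7 sites (horizontal axis) in windows of 50 kb, each per 100000 sites plus 1, on log scales; larger grey dots stand for more windows, the lines for equal density and 2-fold differences, and open circles mark the 10 nuclear windows with most FXR2 sites, the 10 with most isoform 7 sites and the 10 highest and 10 lowest ratios. The 10 lowest nuclear ratios all lie at 0 FXR2 sites, and the unmarked dot to their right is the mitochondrial minus strand, not ranked here, with 0 FXR2 and 99 isoform 7 sites.

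The fullest windows of FXR2 ranged from places with as many isoform 7 sites to places with few. Coordinates are hg19, and the genes, exons and UTRs under them were not analysed here. The rankings of windows and stretches and the 5 Mb regions cover the nuclear chromosomes, and the mitochondrial genome, whose plus strand alone held 35 FXR2 and 143 isoform 7 sites, is described apart at the end. The fullest FXR2 window, on chromosome 21 from 34900001 to 34950000 (plus strand), held 110 FXR2 and 96 isoform 7 sites, a ratio of shares of 2.61 (1.96 to 3.46). There 85 of the FXR2 sites were shared. The window on chromosome 16 from 2800001 to 2850000 (plus strand) held 100 FXR2 and 117 isoform 7 sites, with 91 of the FXR2 sites shared and a ratio of 1.94 (1.47 to 2.56). The window on chromosome 17 from 1550001 to 1600000 (minus strand) held 98 FXR2 and 97 isoform 7 sites, with 92 FXR2 sites shared and a ratio of 2.30 (1.72 to 3.07). In these 3 windows most of the FXR2 sites were on isoform 7 sites.

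On chromosome 12 from 1300001 to 1350000 (plus strand), by contrast, there were 88 FXR2 sites and 11 isoform 7 sites, a ratio of 18.2 (9.69 to 37.8). There 11 of the 88 FXR2 sites were shared, while 68 fell on wild-type isoform 1 and 34 on FXR1. From the other side, 10 of the 11 isoform 7 sites were shared, so the few isoform 7 sites there limit the number shared. The window on chromosome 10 from 62550001 to 62600000 (plus strand) held 84 FXR2 and 32 isoform 7 sites, a ratio of 5.97 (3.93 to 9.27). Only 8 of those FXR2 sites were shared, while 74 fell on wild-type isoform 1 and 44 on FXR1. Of the 32 isoform 7 sites there, 8 were shared, a larger part than the 13.7% of the whole isoform 7 list. The FXR2 part was smaller than the 32.1% of the whole FXR2 list. Against the whole lists, sharing in this window was thus low for FXR2 only. Over the 10 windows fullest in FXR2, 62.2% of FXR2 and 44.5% of isoform 7 sites were shared. Against those windows, sharing here was low from both sides. Most isoform 7 sites there were private, as they were over the whole list.

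Among the 10 windows fullest in FXR2, 5 were at least 2-fold denser in FXR2 and 0 sparser, and the choice by FXR2 count favours the first. Of their 835 FXR2 sites, 519 (62.2%) were shared with isoform 7 and 767 (91.9%) fell on wild-type isoform 1. Over the whole FXR2 list these shares were 32.1% and 64.4%. Among the 10 nuclear windows fullest in isoform 7, 0 were denser in FXR2 and 3 sparser. Those windows held 446 FXR2 sites, of which 356 (79.8%) were shared, and 1250 isoform 7 sites, of which 320 (25.6%) were shared. The rankings had 3 windows in common: the one on chromosome 16 above, one on the minus strand of chromosome 12 (49400001 to 49450000), and one on the plus strand of chromosome 1 (16250001 to 16300000). The chromosome 12 window held 71 FXR2 and 216 isoform 7 sites, a ratio of 0.747 (0.563 to 0.982). The chromosome 1 window held 67 FXR2 and 138 isoform 7 sites, a ratio of 1.10 (0.812 to 1.49) that includes 1, and its log2 ratio changed sign under median-of-ratios scaling.

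Windows full in isoform 7 and thin in FXR2 included a pair on the X chromosome. From 153550001 to 153600000 (minus strand) there were 20 FXR2 and 122 isoform 7 sites, a ratio of 0.373 (0.220 to 0.601). From 53550001 to 53600000 (minus strand) there were 17 FXR2 and 110 isoform 7 sites, a ratio of 0.351 (0.198 to 0.589). The minus strand of chromosome 17 between 80000001 and 80050000 had 18 FXR2 and 106 isoform 7 sites, a ratio of 0.386 (0.220 to 0.640). FXR1 had 2, 2 and 0 sites in these 3 windows and wild-type isoform 1 had 97, 96 and 81.

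For windows chosen by their ratio, the choice and the ratio rest on one set of counts, so the ratios are probably too extreme and the intervals too narrow. The highest was on chromosome 7 from 64150001 to 64200000 (plus strand), with 25 FXR2 sites and 0 isoform 7 sites. Taking 3 sites in place of the 0, FXR2 was at least 18.9-fold higher there, with an exact lower limit of 14.3. Those 25 sites all lay between 64167365 and 64171060. The same window held 42 sites of wild-type isoform 1 and 12 of FXR1, but 2 of I304N isoform 7 and 3 of I304N isoform 1. Next came the minus strand of chromosome 13 between 79850001 and 79900000, with 25 FXR2 sites and 1 isoform 7 site, a ratio of 56.8 whose interval of 9.31 to 2334 shows how little a single site fixes.

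Chromosome 19 gave 3 of the 10 highest ratios, all on the minus strand, although the chromosome as a whole had a ratio of 1.01 (0.957 to 1.06), with 17.995% of its 439 windows denser and 25.7% sparser. From 37000001 to 37050000 there were 37 FXR2 and 6 isoform 7 sites, a ratio of 14.0 (5.87 to 40.6), with 0 of the FXR2 sites shared and 104 sites of wild-type isoform 1. From 23400001 to 23450000 there were 24 FXR2 and 4 isoform 7 sites, a ratio of 13.6 (4.69 to 54.1). From 23500001 to 23550000 there were 18 FXR2 and 2 isoform 7 sites, a ratio of 20.5 (4.90 to 182). Over the 10 windows of highest ratio, 16 of 320 FXR2 sites were shared with isoform 7, which had 45 sites there. On wild-type isoform 1 fell 217 (67.8%), close to the 64.4% of the whole FXR2 list. The choice of windows with few isoform 7 sites fixes the low number shared.

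The 10 nuclear windows of lowest ratio held 0 FXR2 and 0 FXR1 sites each. The isoform 7 counts ran from 23 to 40. On chromosome 12 from 124800001 to 124850000 (minus strand) there were 0 FXR2 and 40 isoform 7 sites, so FXR2 was at least 5.86-fold lower with 3 sites in place of the 0, and the exact upper limit of the ratio was 0.220. On chromosome 19 from 40750001 to 40800000 (minus strand) there were 0 FXR2 and 35 isoform 7 sites, at least 5.13-fold lower with an upper limit of 0.253. On chromosome 11 a window from 65150001 to 65200000 (plus strand) had 0 FXR2, 30 isoform 7 and 0 wild-type isoform 1 sites. Another there, from 65250001 to 65300000, had 0 FXR2, 30 isoform 7 and 21 wild-type isoform 1 sites. Both were at least 4.40-fold lower in FXR2, with an upper limit of 0.298.

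**Figure D4:**
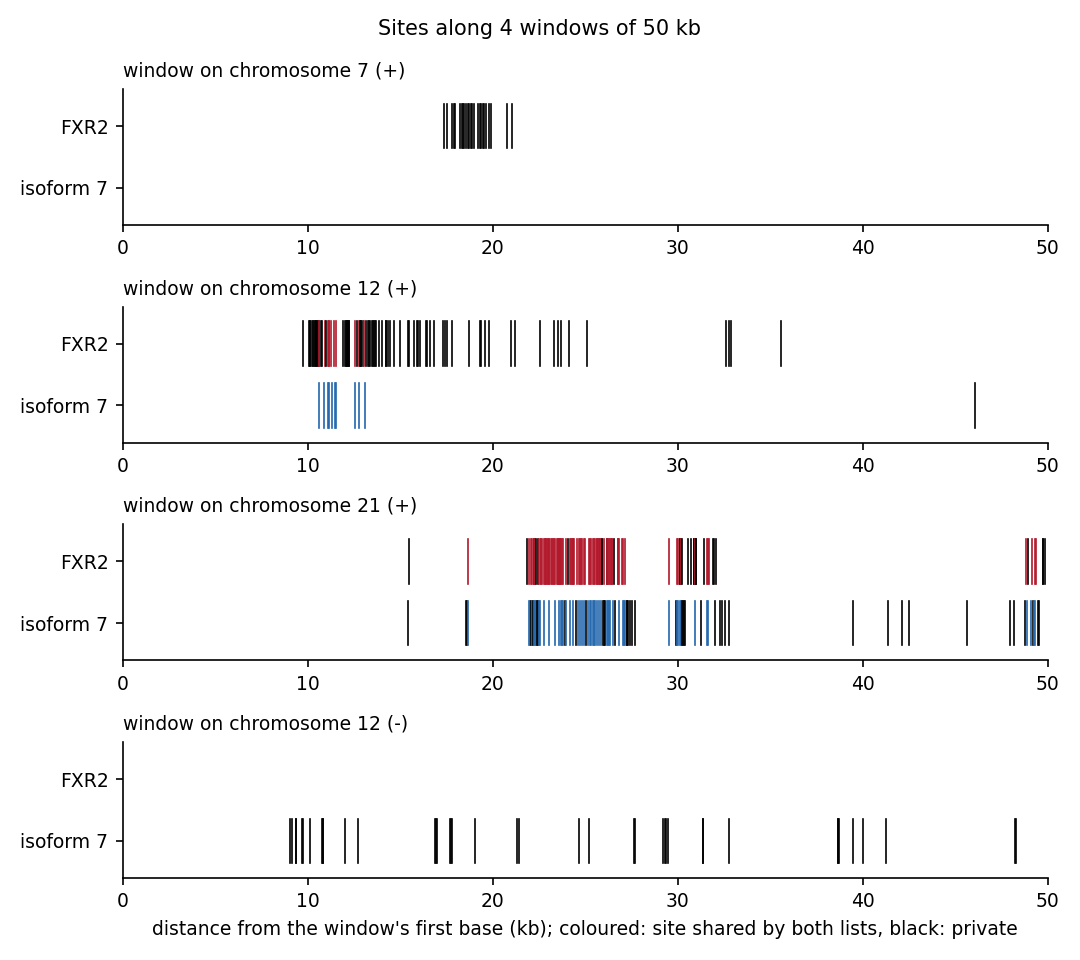
Positions of FXR2 and isoform 7 sites (rows) in 4 windows of 50 kb, in kb from each window's first base (horizontal axis); coloured marks are sites shared by both lists and black marks are private sites. The windows are the highest ratio (chromosome 7, 25 FXR2 and 0 isoform 7 sites), the 88 and 11 sites on chromosome 12 (plus strand), the fullest FXR2 window (chromosome 21, 110 and 96 sites) and the lowest nuclear ratio (chromosome 12, minus strand, 0 and 40 sites).

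To see places bound by one protein alone without fixed window edges, sites of both lists on a strand were linked into stretches wherever neighbours lay within 2000 nt. Of 32569 stretches, 4214 held FXR2 sites alone, 20245 isoform 7 sites alone and 8110 both. Stretches of FXR2 alone held 15.1% of FXR2 sites, and stretches of isoform 7 alone held 38.03% of isoform 7 sites. Most were a lone site: 87.3% of the FXR2 stretches and 76.9% of the isoform 7 stretches. Stretches with 10 or more sites numbered 7 for FXR2 alone and 93 for isoform 7 alone, of which 14 had 20 or more.

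The stretch with most FXR2 sites and no isoform 7 site was again the cluster on chromosome 7, with 25 sites beside 38 of wild-type isoform 1. Chromosome 19 from 24309383 to 24312602 (plus strand) followed with 14 FXR2 sites, at least 10.6-fold higher than isoform 7 with 3 sites in place of the 0, and an exact lower limit of 7.54. It had 17 sites of wild-type isoform 1 and 1 of each I304N form. Chromosome 3 from 170110364 to 170113480 (plus strand) and chromosome 13 from 79892672 to 79896596 (minus strand) had 12 FXR2 sites each. Wild-type isoform 1 had 23 sites in the first and 12 in the second. On the other side stood a stretch on chromosome 9 from 139347936 to 139361529 (minus strand), with 0 FXR2 and 32 isoform 7 sites, at least 4.69-fold lower in FXR2, with an upper limit of 0.278. It held 15 sites of wild-type isoform 1, 23 of I304N isoform 7 and 33 of I304N isoform 1. The stretch on chromosome 11 from 65190297 to 65195975 (plus strand) had 0 FXR2 and 28 isoform 7 sites. It had 0 sites of FXR1, of wild-type isoform 1 and of I304N isoform 7 as well, and 4 of I304N isoform 1. At that stretch isoform 7 stood nearly alone among the 6 libraries.

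Along the genome, FXR2 took a larger share of its sites from chromosome 13 and a smaller one from chromosome 22. Chromosome 13 held 1271 FXR2 and 1549 isoform 7 sites, 3.68% and 1.97% of the lists, a ratio of 1.87 (1.73 to 2.01). Chromosome 22 held 1.92% of FXR2 and 3.05% of isoform 7 sites, a ratio of 0.630 (0.577 to 0.687). The interval lay above 1 for 5 of 24 chromosomes, the mitochondrial genome counted among them, and below 1 for 10. Above 1 were also chromosome 10 at 1.24 (1.17 to 1.31), chromosome 5 at 1.19 (1.13 to 1.26), chromosome 1 at 1.08 and chromosome 12 at 1.06. These intervals treat clustered sites as independent. With windows that hold a site counted in place of sites, the ratio was 1.16 (0.983 to 1.36) for chromosome 13 and 0.940 (0.773 to 1.14) for chromosome 22, and only chromosomes 1 and 19 kept or gained an interval above 1, with none below.

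**Figure D5:**
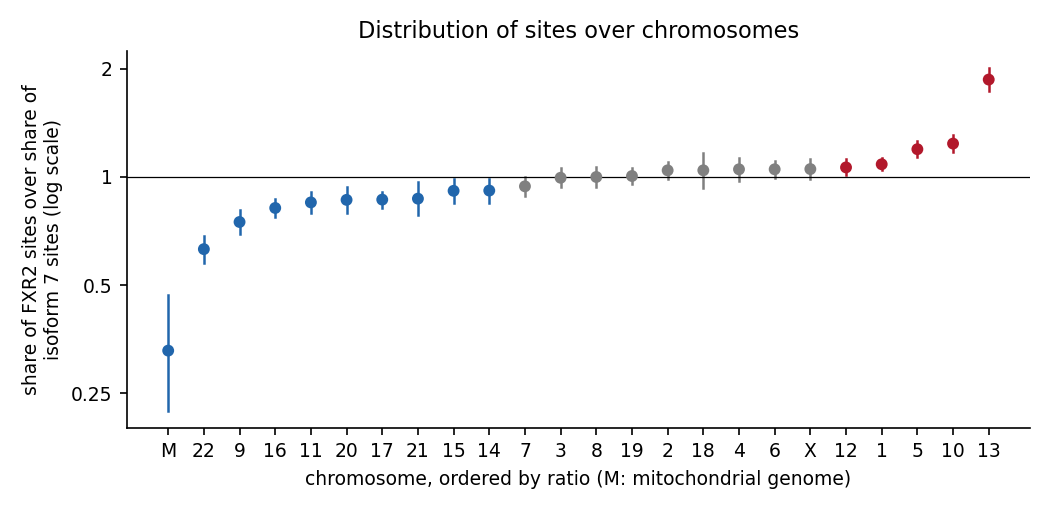
Share of FXR2 sites over share of isoform 7 sites on each chromosome (vertical axis, log scale), ordered by ratio, with exact 95% intervals as bars. Chromosome 13 is highest at 1.87 and the mitochondrial genome lowest at 0.329.

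The excess on chromosome 13 was present in many windows and remained, though smaller, without the windows fullest in FXR2. Of its 196 windows that passed the filter, 39.8% were at least 2-fold denser in FXR2 and 10.7% sparser, against 20.4% and 23.6% over all windows, with a median log2 ratio of 0.78. On chromosome 13, 246 windows held an FXR2 site. Without the 20 fullest in FXR2, 709 of its 1271 FXR2 sites and 1077 of its 1549 isoform 7 sites remained. The ratio was then 1.497 (1.36 to 1.65). Leaving out windows by their FXR2 count lowers the ratio by itself, so the size of the fall carries no meaning. Of the 174 windows tested on chromosome 22, 1.72% were denser and 42.0% sparser, with a median log2 ratio of -0.68. The share of FXR2 sites that overlapped isoform 7 ran the other way: 20.5% on chromosome 13 and 47.7% on chromosome 22. Measured from isoform 7, the shares were 16.8% and 12.9%. Such shares depend on how many sites each list has there, and chromosome 22 held 664 FXR2 and 2397 isoform 7 sites. In the other libraries chromosome 13 held 2.65% of FXR1 sites, 2.50% of wild-type isoform 1 sites, 1.72% of I304N isoform 1 sites and 1.62% of I304N isoform 7 sites. Chromosome 22 held 1.13% of FXR1 sites, 2.00% of wild-type isoform 1 sites, 3.26% of I304N isoform 1 sites and 3.55% of I304N isoform 7 sites, so the FXR2 share there was close to that of wild-type isoform 1.

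Regions of 5 Mb, both strands together and with at least 60 sites over both lists, numbered 464, with 28 (6.03%) at least 2-fold denser in FXR2 and 21 (4.53%) at least 2-fold sparser. The highest was chromosome 19 from 20000001 to 25000000, with 149 FXR2 and 53 isoform 7 sites, a ratio of 6.39 (4.64 to 8.92). FXR1 had 76 sites there, wild-type isoform 1 had 233, I304N isoform 7 had 70 and I304N isoform 1 had 92. Chromosome 1 from 190000001 to 195000000 followed with 51 FXR2 and 26 isoform 7 sites, a ratio of 4.46 (2.73 to 7.45), then chromosome 13 from 25000001 to 30000000 with 117 and 82 sites and a ratio of 3.24 (2.43 to 4.36). All 13 regions tested on chromosome 13 had a ratio above 1, between 1.26 and 3.24, and for 11 of them the interval lay above 1. Of all 464 regions, 241 had a ratio above 1 and 108 an interval above 1 (23.3%), with a median ratio of 1.02. Among the lowest was chromosome 21 from 45000001 to 50000000, with 56 FXR2 and 418 isoform 7 sites and a ratio of 0.30 (0.23 to 0.40). The same chromosome thus held the fullest FXR2 window and one of the regions thinnest in FXR2.

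On the mitochondrial genome FXR2 had sites on one strand alone. FXR2 had 35 plus-strand and 0 minus-strand sites, and isoform 7 had 143 and 99. The ratio of shares was 0.557 (0.373 to 0.810) on the plus strand. On the minus strand FXR2 was at least 14.5-fold lower, with 3 sites in place of the 0 and an upper limit of 0.0863. Of the 35 FXR2 sites 33 were shared with isoform 7, while 31 of the 143 plus-strand isoform 7 sites were shared with FXR2. FXR1 also had 0 minus-strand sites, beside 18 on the plus strand, and wild-type isoform 1 had 21 beside 125. In the I304N libraries the minus strand held more sites than the plus strand, 55 and 31 for isoform 7 and 41 and 31 for isoform 1.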

How the data were processed

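PAR-CLIP was done for 6 tagged forms of FMR1, FXR1 and FXR2 with 1 library each, grouped by the immunoprecipitated protein in the labels. Per the submitters' processing notes, Bowtie 0.12.7 and the build hg19 were used. How sites were called from aligned reads, and how many reads each has, is not given in the sources used here. The deposited score is a repeat flag and no height: per the file headers it is 1000 outside repeats and 0 in a repeat. The other deposited numbers are site starts and ends.

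Overlaps, distances, windows of 50 kb and intervals were computed with Python 3.11.15, numpy 2.4.6, pandas 2.3.3 and scipy 1.17.1, and the code was tested on simulated data. Scaled counts are per 100000 sites, with a pseudocount of 1 in log2 ratios only. A count of 0 was bounded with 3 sites per library, 0.00869% of the FXR2 list and 0.00382% of the isoform 7 list. The annotation at hand is of another build, GRCh38, so gene names, gene lists and sequences were not analysed here, and windows replaced genes. Named windows are, outside the mitochondrial genome, the top 10 by sites in each list and the 10 highest and lowest ratios among windows with at least 20 sites. The text gives a selection. The comparison and its lists were chosen with earlier results of these data known. Stretches, regions of 5 Mb, the window counts from narrow sites and chromosome 13 without its fullest windows were added after seeing these data. Alternatives tried were stricter overlaps, narrow sites, other distances, window sizes, scalings, pseudocounts and filters, and leaving out repeats, mitochondrial sites or the fullest windows.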

Additional observations from a re-analysis of the deposited data

How the results depend on the processing

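When the overlap had to span 50% of the shorter site, 27.7% of FXR2 and 11.7% of isoform 7 sites were shared, with 50% of both sites 19.5% and 8.56%, and with sites of up to 22 nt only 12.01% and 6.35%. Among such narrow pairs 24.1% had the same 5′ end. Isolated sites made up 36.8% of FXR2 and 35.0% of isoform 7 sites at 500 nt and 23.7% and 23.2% at 2000 nt, and 28.1% of isoform 7 sites without repeats. Denser windows numbered 955 with a pseudocount of 5. Without a filter 3072 were denser and 10478 sparser, and with a filter of 4 scaled sites 1106 were sparser. With narrow sites 3099 were denser and 3001 sparser of 9677 windows that passed the filter, and the cause of the larger numbers was not examined by any test. The median log2 ratio was -0.16 with median-of-ratios scaling and -1.19 without a filter, both of the opposite sign to the main 0.14. It was 0.16 with windows of 20 kb, with a pseudocount of 0.5 and with a filter of 4, 0.065 with a pseudocount of 5, 0.0057 without repeats, 0.13 without mitochondrial sites and 0.18 with narrow sites. For the change of sign under median-of-ratios scaling the cause was not tested. Counting windows with a site, 2 chromosomes were higher and 0 lower, and the log2 ratio was 0.21 for chromosome 13 and -0.089 for chromosome 22. Without its 10 windows fullest in FXR2, a choice that lowers the ratio by itself, chromosome 13 was at 0.74. The chromosome 1 window from 16250001 turned to -0.042 under median-of-ratios scaling. Of the other values of named windows and single chromosomes, 187 stayed within the exact interval of the main value. Outside it but with the same sign were 4, those of chromosomes 5, 9, 10 and 16 when windows with a site were counted. For windows with 0 sites in a list the exact interval has no bound at an end of the log scale. Leaving out mitochondrial sites changes nuclear windows only through the list totals. Window sizes and filters were not varied for named windows. The 187 is therefore a weak check of stability. No paired analysis was possible because each tagged form has 1 library, and for the same reason no replicate could be left out. Genes as the unit in place of windows, and the planned gene lists with their alternatives, were not run without an hg19 annotation. The unknown reads per site limit every statement on absence.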
